A study of Mus musculus with 6 samples.

Results

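Voltage-gated calcium channels and their alpha2delta subunits were described through 10 genes, 7 for pore-forming alpha1 subunits and 3 for alpha2delta subunits, out of 32719 genes in the count files. The members were the rows with these gene symbols, and each symbol stood on 1 row. The family was chosen by measured values, namely the treated against control difference of its members in an earlier look at these data, so every treated against control value of a member below is a description and supports nothing. RNA came from vagal jugular-nodose ganglia, the ganglia of the vagal sensory neurons, in 6 libraries. By their titles 3 libraries were treated and 3 were controls. The protocol has male C57BL/6J mice under osmotic pumps, in which the treated animals received S961, an antagonist of the insulin receptor, in PBS at 10 nmol per week over 2 weeks and the controls PBS alone. All 6 libraries are labelled WT and all 6 carry the treatment label S961, so that the controls received PBS rests on titles and protocol. No label gives an age or says whether replicates are separate animals, so that spreads and p-values may be technical.

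A voltage-gated calcium channel opens when the membrane is depolarised and lets calcium into the cell, where it drives transmitter release, excitability and gene transcription. The alpha1 subunit forms the pore and sets the channel type. The beta subunits and the alpha2delta subunits bring channels of the L, N, P/Q and R types to the cell surface, while T-type channels open near rest and do not need them. Alpha2delta-1, the product of Cacna2d1, is a target of gabapentin and pregabalin, and its level is known to increase in rodent sensory neurons after nerve injury. The N-type channel is the main presynaptic calcium channel of many sensory neurons.

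The coding sequences show how the members differ. Gabapentin binding depends on a run of arginines ahead of the von Willebrand domain of alpha2delta-1 and alpha2delta-2, and the stretch around it is given here from the GENCODE M21 transcript with the longest coding sequence, 5′ to 3′, with the 3 codons at that place in capitals. The capitals encode 3 arginines in Cacna2d1 and Cacna2d2 and arginine, asparagine and arginine in Cacna2d3. Each stretch crosses from one exon to the next, from exon 8 to 9 in Cacna2d1 (chr5:16264302-16266717, GRCm38, plus strand), from exon 8 to 9 in Cacna2d2 (chr9:107512335-107513084, plus strand) and from exon 7 to 8 in Cacna2d3 (chr14:29347001-29347147, minus strand).
Cacna2d1: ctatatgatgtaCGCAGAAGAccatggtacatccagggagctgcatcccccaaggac
Cacna2d2: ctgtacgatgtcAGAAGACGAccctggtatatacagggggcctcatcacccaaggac
Cacna2d3: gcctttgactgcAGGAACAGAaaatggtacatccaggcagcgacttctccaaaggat

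The alpha1 members fall into classes by the acidic residue that each of their 4 pore loops offers to calcium. The pore loop of the third domain separates them, and it is shown for all 7, 5′ to 3′, with the codon of that residue in capitals. It encodes glutamate in Cacna1a, Cacna1b, Cacna1c, Cacna1d and Cacna1e and aspartate in the T-type genes Cacna1g and Cacna1h. In domains 1 and 2 all 7 genes encode glutamate, and in domain 4 the T-type pair again encodes aspartate. The motif by which beta subunits bind the linker after domain 1 was matched 1 time in each of the 5 glutamate genes and 0 times in each of the T-type pair.
Cacna1a: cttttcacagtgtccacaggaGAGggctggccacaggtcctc
Cacna1b: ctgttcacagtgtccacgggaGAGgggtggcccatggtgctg
Cacna1c: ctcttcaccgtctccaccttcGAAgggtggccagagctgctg
Cacna1d: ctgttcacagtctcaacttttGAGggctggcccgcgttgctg
Cacna1e: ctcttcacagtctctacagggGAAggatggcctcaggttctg
Cacna1g: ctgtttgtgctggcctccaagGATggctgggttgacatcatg
Cacna1h: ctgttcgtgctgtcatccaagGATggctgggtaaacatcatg

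The libraries held 12898607 to 33522486 gene counts in treated ganglia and 14844384 to 25749857 in controls, of which the 10 members took 16023 to 52777 and 21656 to 38274. Treated replicate 3, the smallest library, stood apart, with correlations to the other 5 libraries across genes of 0.92 to 0.94, against up to 0.99 among the rest. RNA integrity numbers are given only as a range of 6.6 to 9.1, so that of each library is not known. Although the tissue label reads spinal cord, markers of vagal neurons were present, and the summed level of 10 nodose markers was 527 to 1065 CPM (counts scaled to the adjusted library size) in treated libraries and 1313 to 1396 CPM in controls. The spinal cord and brain list summed to 40.3 to 51.0 CPM in treated libraries and 53.9 to 56.8 CPM in controls, most of it from the choline transporter Slc5a7 and the water channel Aqp4. The motor neuron gene Mnx1 had 1 to 5 counts in treated libraries and 0 to 2 in controls, and the oligodendrocyte gene Mog had 2, 0 and 0 counts in treated libraries and 0 in each control. In whole ganglia fewer cells of a type and less RNA per cell cannot be told apart.

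All 10 members passed the filter on low counts and were tested among 16019 genes with edgeR's quasi-likelihood test, which called 0 genes (0%) at an adjusted p of 0.05 and so 0 of the 10 members. At an unadjusted p under 0.05, edgeR had 640 genes higher (4%) and 428 lower (2.67%), with 1 member on each side, Cacna2d1 higher and Cacna1e lower. By log2 fold change, treated over control, 3 members were positive and 7 negative, with a median of -0.11 against 0.02 over all genes tested. The 3 treated libraries all lay above the 3 controls for 1 member, Cacna2d1, which 7.07% of all genes tested also did. They all lay below the controls for 2 members, Cacna1e and Cacna1h, which 7.63% of all genes tested also did.

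**Figure D1:**
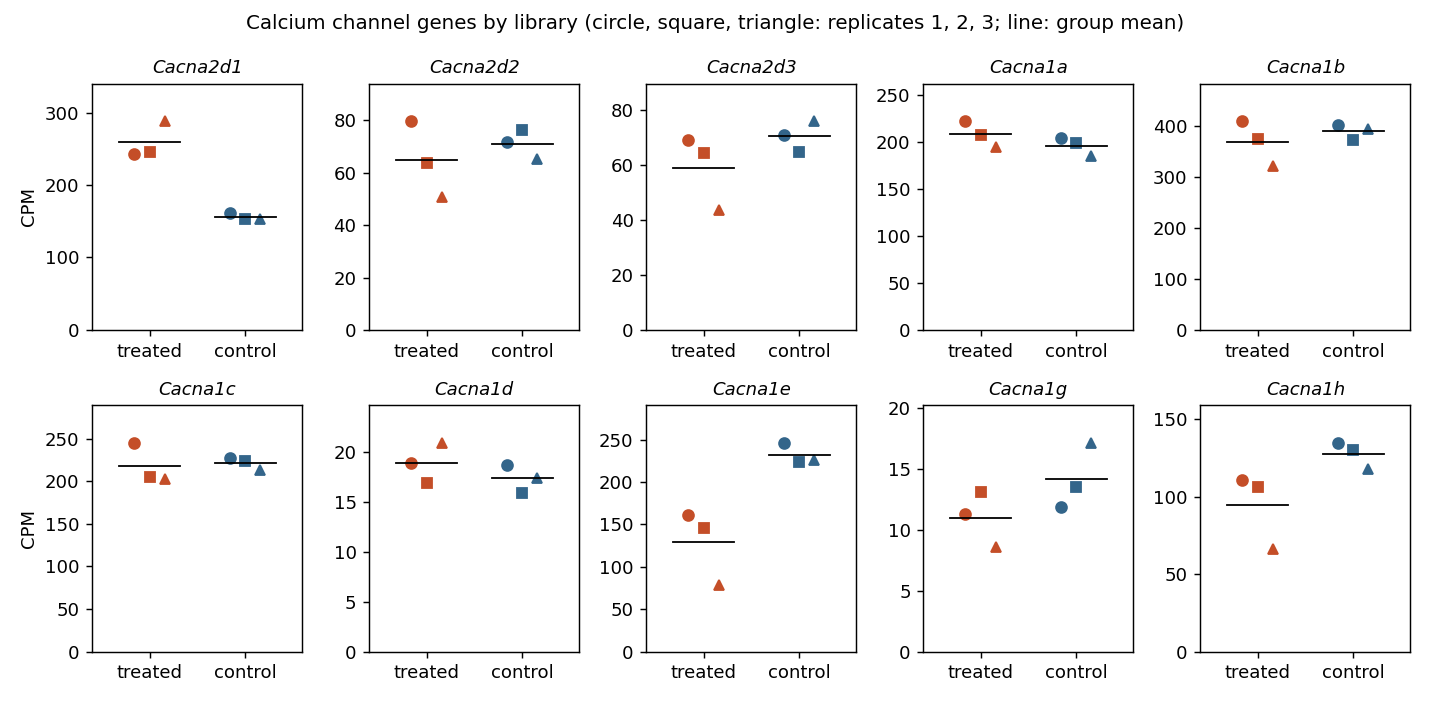
CPM of each of the 10 genes in each library, with treated libraries left and controls right, replicates 1, 2 and 3 as circle, square and triangle, and a line at the group mean. Treated and control values are separate in Cacna2d1, at 243 to 288 against 153 to 162 CPM, and in Cacna1e and Cacna1h, and overlap in the other 7 genes.

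Cacna2d1 was the alpha2delta gene with the higher level in treated ganglia. The gene (ENSMUSG00000040118) lies on the plus strand of chromosome 5 at 15934691 to 16374511 (GRCm38), a span of 439.8 kb. It had 243, 245 and 288 CPM in treated libraries and 162, 153 and 153 CPM in controls, from 3621 to 8175 and 2267 to 3973 counts. The lowest treated library was thus well above the highest control and the controls lay close together. The means were 259 ± 25.3 CPM in treated ganglia and 156 ± 5.02 CPM in controls (SD, n = 3 each), a log2 fold change of 0.73 ± 0.10 (SE), or 1.66-fold. The edgeR adjusted p was 0.219, and it ranged from 1.26e-08 with DESeq2 to 0.995 without control replicate 1. Calls at 0.05 were made by DESeq2, by edgeR without its filter, by limma-voom with sample weights, and by edgeR without treated replicate 3, where the log2 fold change was 0.65 and the adjusted p 0.0252.

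The other alpha2delta genes did not share this pattern. Cacna2d2, the gene mutated in the ataxic ducky mouse (ENSMUSG00000010066, chromosome 9, 107399612 to 107529343, plus strand), had 79.7, 63.9 and 50.6 CPM in treated libraries and 71.9, 76.4 and 65.1 CPM in controls. Its treated libraries reached above and below the controls, with a log2 fold change of -0.13 ± 0.16 (SE) that was 0.01 without treated replicate 3. Cacna2d3, which is needed for heat nociception in flies and mice (ENSMUSG00000021991, chromosome 14, 28904943 to 29721864, minus strand), had 69.1, 64.4 and 43.5 CPM in treated libraries and 70.7, 64.5 and 75.9 CPM in controls. Treated replicate 3 was again the lowest library, and the log2 fold change of Cacna2d3 was -0.25 ± 0.17 (SE), or -0.08 without that library.

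Ratios of counts within a library do not depend on how libraries are scaled. For each Cacna2d2 count there were 3.05, 3.84 and 5.69 Cacna2d1 counts in treated libraries and 2.25, 2.00 and 2.35 in controls. For each Cacna2d3 count there were 3.52, 3.81 and 6.62 Cacna2d1 counts in treated libraries and 2.29, 2.37 and 2.02 in controls. In both ratios every treated library exceeded every control, and treated replicate 3 was the highest.

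Per length, Cacna2d1 made up 52.2%, 56.2% and 67.1% of the alpha2delta level in treated libraries and 43.1%, 42.0% and 42.2% in controls, where the level is CPM per kb of the gene's merged exons. The share of Cacna2d2 was 22.7% ± 4.15 in treated ganglia and 30.3% ± 2.39 in controls, and that of Cacna2d3 was 18.8% ± 3.81 and 27.3% ± 2.29 (SD, n = 3 each). The summed alpha2delta level was 35.8 ± 1.58 CPM per kb in treated ganglia and 29.6 ± 0.53 CPM per kb in controls. The sum was thus higher in treated ganglia with lower means of 2 of its 3 parts. With the length of the longest transcript in place of merged exons the Cacna2d1 share averaged 56.5% in treated ganglia and 40.1% in controls.

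**Figure D2:**
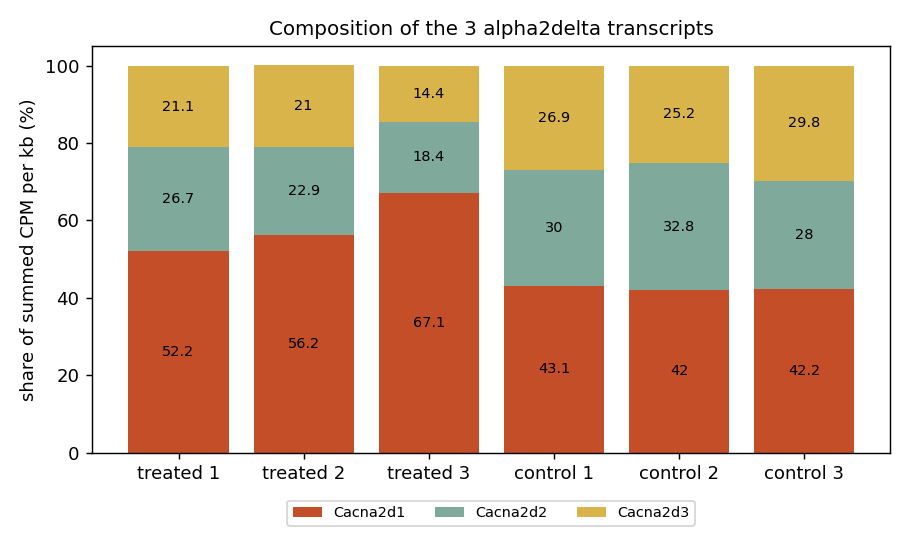
Share of each alpha2delta gene in their summed CPM per kb of exon, as a stacked bar for each library, with treated libraries left and controls right. Cacna2d1 takes 52.2% to 67.1% of the bar in treated libraries and 42.0% to 43.1% in controls.

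Of the presynaptic channel genes, those of the N and P/Q types had overlapping values in treated and control ganglia, and the R-type gene was lower in treated ganglia. Cacna1b, the N-type pore subunit (ENSMUSG00000004113, chromosome 2, 24603887 to 24763152, minus strand), had 409, 375 and 320 CPM in treated libraries and 402, 373 and 393 CPM in controls. Its log2 fold change was -0.08 ± 0.11 (SE), and it was 0.01 without treated replicate 3. Cacna1a, the P/Q-type pore subunit (ENSMUSG00000034656, chromosome 8, 84388440 to 84640246, plus strand), had 222, 208 and 195 CPM in treated libraries and 204, 199 and 185 CPM in controls. Values of both genes overlapped between the groups, and the log2 fold change of Cacna1a was 0.09 ± 0.09 (SE), or 0.028 without treated replicate 1.

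Cacna1e encodes the R-type pore subunit (ENSMUSG00000004110, chromosome 1, 154390731 to 154884501, minus strand). It had 162, 146 and 78.4 CPM in treated libraries and 246, 223 and 226 CPM in controls. All treated libraries lay below all controls, and treated replicate 3 was far below the other treated libraries. The means were 129 ± 44.2 CPM in treated ganglia and 232 ± 12.5 CPM in controls (SD, n = 3 each), a log2 fold change of -0.85 ± 0.25 (SE) with an edgeR adjusted p of 0.67. Without treated replicate 3 it was -0.59 with an edgeR adjusted p of 0.0554, and over all alternatives it ran from -1.05 to -0.59 with adjusted p from 0.0554 to 0.995. The ratio of Cacna1a to Cacna1e counts was 1.38, 1.42 and 2.48 in treated libraries and 0.831, 0.889 and 0.820 in controls. These are raw counts, and the merged exons are 25.2 kb in Cacna1e and 11.4 kb in Cacna1a. Per length Cacna1a was higher than Cacna1e in every control, at 16.2 to 17.9 against 8.85 to 9.75 CPM per kb. The same held in every treated library, at 17.05 to 19.45 against 3.11 to 6.40 CPM per kb.

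The values of both L-type genes overlapped between the groups. Cacna1c, the L-type pore subunit shared with heart and smooth muscle (ENSMUSG00000051331, chromosome 6, 118587240 to 119196418, minus strand), had 245, 206 and 203 CPM in treated libraries and 228, 224 and 214 CPM in controls. Its log2 fold change of -0.02 ± 0.10 (SE) changed sign without treated replicate 2 or 3. Cacna1d, the L-type pore subunit that paces sinoatrial cells (ENSMUSG00000015968, chromosome 14, 30039939 to 30491455, minus strand), had 18.96, 16.9 and 20.9 CPM in treated libraries and 18.7, 15.9 and 17.4 CPM in controls. Its log2 fold change was 0.12 ± 0.13 (SE), or 0.049 without treated replicate 3. Cacna1d lies 318 kb from Cacna2d3 on chromosome 14, and it shares 589 bp of exon with Chdh on the opposite strand, so that reads there are told apart only if strand was used in counting, which is not given in the sources used here.

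Cacna1h and Cacna1g, the T-type members, had lower means in treated ganglia, while the remaining T-type gene, Cacna1i, which is not among the 10, had the higher mean there and is described with the other subunits. Cacna1h, a T-type pore subunit known from mechanosensory neurons (ENSMUSG00000024112, chromosome 17, 25374285 to 25433783, minus strand), had 111, 107 and 66.1 CPM in treated libraries and 135, 130 and 118 CPM in controls. The groups did not overlap, and treated replicate 3 was far below the other treated libraries. Cacna1h shares 158 bp of exon with Tpsg1 on the opposite strand, under the same limit on strand as Cacna1d. That limit also holds for 435 bp of Cacna1a exon shared with Gm16183 and 82 bp of Cacna2d2 exon shared with Gm17141, each on the opposite strand. The log2 fold change of Cacna1h was -0.43 ± 0.19 (SE) with all libraries, at an edgeR adjusted p of 0.737, and -0.23 without treated replicate 3. Cacna1g, another T-type pore subunit (ENSMUSG00000020866, chromosome 11, 94408391 to 94474198, minus strand), had 11.3, 13.2 and 8.59 CPM in treated libraries and 11.9, 13.5 and 17.2 CPM in controls, from 108 to 380 and 208 to 352 counts. Its groups overlapped, with a log2 fold change of -0.36 ± 0.21 (SE) that was -0.21 without control replicate 3 and likewise -0.21 without treated replicate 3. Among the 7 alpha1 members, which leave out Cacna1i, Cacna1g and Cacna1h together made up 13.5%, 14.4% and 10.7% of the summed level per kb in treated libraries and 15.7%, 16.3% and 15.3% in controls.

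**Figure D3:**
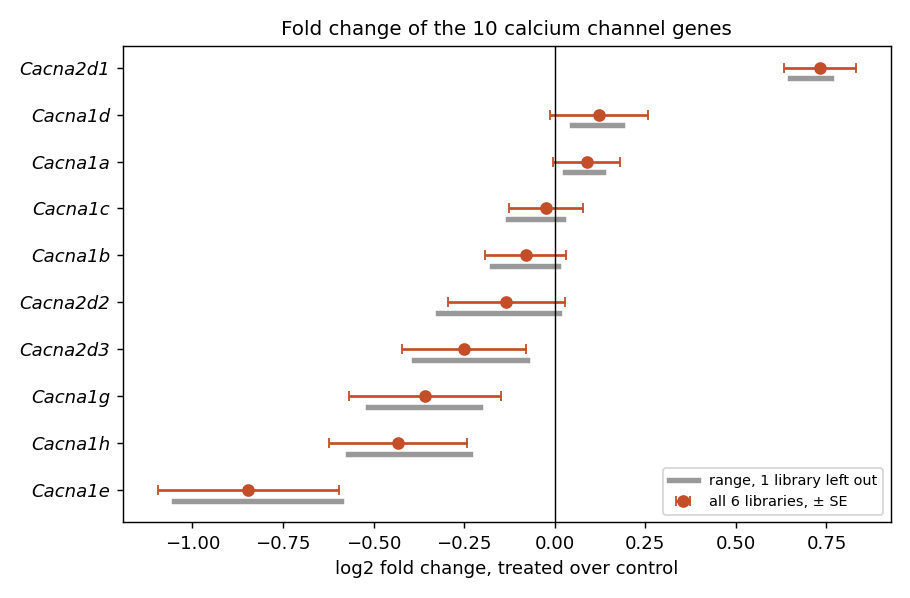
Log2 fold change of each gene, treated over control, as a point with its SE from all 6 libraries, above a grey bar from the lowest to the highest value when any 1 library is left out. Cacna2d1 at 0.73 and Cacna1e at -0.85 lie at the ends, and the grey bars of Cacna2d2, Cacna1b and Cacna1c reach across 0.

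Levels between genes were compared as CPM per kb of merged exon. In treated ganglia the order was Cacna1b at 37.0 ± 4.49, Cacna2d1 at 20.9 ± 2.03, Cacna1a at 18.2 ± 1.20, Cacna1c at 10.3 ± 1.11, Cacna1h at 9.67 ± 2.52, Cacna2d2 at 8.15 ± 1.84, Cacna2d3 at 6.76 ± 1.56, Cacna1e at 5.10 ± 1.75, Cacna1d at 1.499 ± 0.16 and Cacna1g at 1.09 ± 0.23 CPM per kb (SD, n = 3). In controls it was Cacna1b at 39.2 ± 1.49, Cacna1a at 17.2 ± 0.88, Cacna1h at 13.1 ± 0.90, Cacna2d1 at 12.6 ± 0.40, Cacna1c at 10.5 ± 0.34, Cacna1e at 9.18 ± 0.50, Cacna2d2 at 8.95 ± 0.71, Cacna2d3 at 8.07 ± 0.65, Cacna1g at 1.40 ± 0.26 and Cacna1d at 1.38 ± 0.11 CPM per kb (SD, n = 3). The N-type gene was the highest in both groups without overlap with its neighbour. In treated ganglia the values of neighbours overlapped from Cacna1c down to Cacna1e. In controls they overlapped for Cacna1h with Cacna2d1, for Cacna1e with Cacna2d2, for Cacna2d2 with Cacna2d3 and for Cacna1g with Cacna1d. Cacna2d1 thus had rank 2 in treated ganglia and rank 4 in controls, and Cacna1e rank 8 and rank 6.

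**Figure D4:**
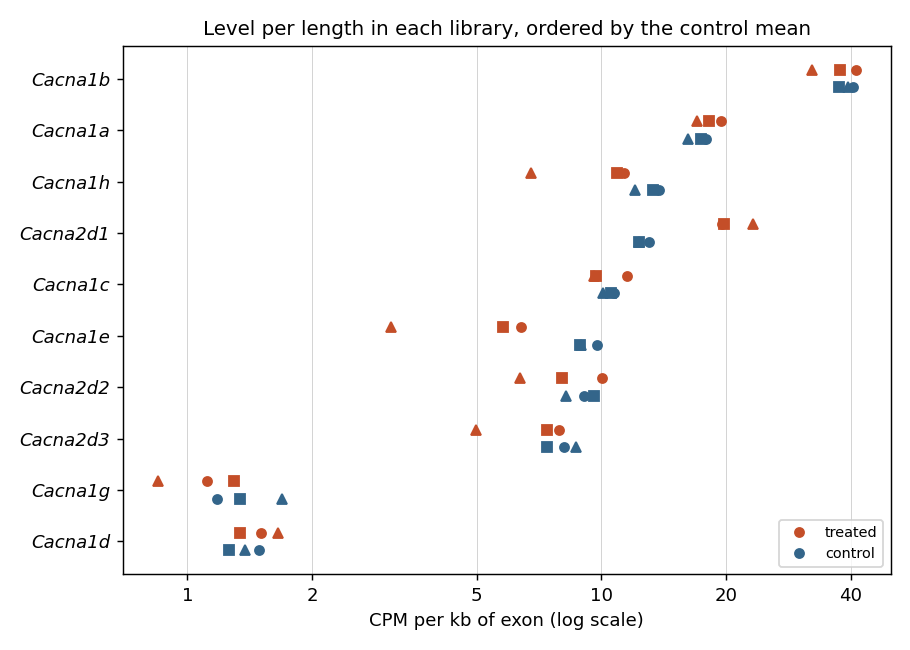
CPM per kb of exon, on a log axis, for each gene in each library, with treated libraries above controls in each row, replicates 1, 2 and 3 as circle, square and triangle, and genes ordered by the control mean. Cacna1b is the highest in both groups at 32.2 to 41.1 and 37.5 to 40.4 CPM per kb, and Cacna1d and Cacna1g stay under 2.

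The spread between libraries, as the SD of log2 CPM, was larger in treated ganglia than in controls for all 10 members and for 69.5% of the 15784 tested genes with counts in every library. The members' SD ran from 0.09 for Cacna1a to 0.56 for Cacna1e in treated ganglia, against 0.05 for Cacna2d1 to 0.27 for Cacna1g in controls. Treated replicate 3 was the lowest treated library for 8 members and the highest for 2, Cacna2d1 and Cacna1d, against 42.3% and 42.6% of those genes. With 10 members and no test, these counts are not shown to be particular to the family. In that library the summed level of 12 pan-neuronal markers was 9322 CPM, against 12940 and 12160 CPM in treated replicates 1 and 2 and 11600 to 12650 CPM in controls. The sum is weighted to its most abundant genes. Gene by gene, all of the list except Rbfox3 were lower in that library than in any control. In treated replicate 3 Nefl had 2089 CPM against 2796 to 3024 CPM in controls, and Nefm 1599 against 2058 to 2478 CPM. Rbfox3 went the other way, with 131 CPM against 94.6 to 99.7 CPM in controls. Relative to the control mean on the log2 scale that list stood at -0.40 in treated replicate 3, where Cacna1e stood at -1.56, Cacna1h at -0.95, Cacna2d3 at -0.69 and Cacna1b at -0.28, while Cacna2d1 stood at 0.89.

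Marker lists of other kinds differed with the groups or with treated replicate 3, and their part in the members' values was not tested. The summed level of 15 nerve injury genes was 686, 999 and 862 CPM in treated libraries and 502, 492 and 502 CPM in controls. Of the 15, 12 were higher in every treated library than in any control, which 7.07% of all genes tested also were. Atf3, Ecel1 and Sprr1a had the smallest edgeR p of the list. Values overlapped for Gap43, Hspb1 and Npy, with log2 fold changes of -0.04, -0.08 and -1.13. Gap43, a large part of the sum, averaged 225 CPM in treated ganglia and 231 CPM in controls. Atf3, a transcription factor gene of injured neurons, averaged 58.7 ± 20.1 CPM in treated ganglia and 6.02 ± 1.61 CPM in controls (SD, n = 3 each). The summed level of 10 jugular neuron markers was 827, 493 and 1063 CPM in treated libraries and 412, 452 and 430 CPM in controls, and that of the 10 nodose markers was 1025, 1065 and 527 CPM in treated libraries against 1396, 1313 and 1334 CPM in controls. Fat cell markers summed to 9.94, 72.9 and 538 CPM in treated libraries and 41.8, 13.4 and 26.0 CPM in controls, and macrophage markers to 42.4, 76.0 and 269 CPM in treated libraries and 46.6, 34.8 and 79.6 CPM in controls. Of the fat cell markers 8 of 10 and of the macrophage markers 8 of 8 were tested, all with positive log2 fold changes. Their medians were 3.57 and 1.34 with all libraries, and 1.23 and 0.08 without treated replicate 3. Sympathetic and glomus cell markers summed to 341, 335 and 215 CPM in treated libraries and 381, 382 and 364 CPM in controls, so that every treated library was below every control. Gene by gene this held for 3 of the 7 tested, and for 7.63% of all genes tested. Of the 7, 6 were negative and 1 positive. Chga, the most abundant of the list, overlapped, with 252, 243 and 157 CPM in treated libraries and 240, 258 and 239 CPM in controls. Of the other lists, log2 fold changes were positive for 7 of 7 Schwann cell genes (median 0.60) and 6 of 6 tested neutrophil genes (median 1.96). They were negative for 8 of 9 skeletal muscle genes (median -1.45) and 5 of 5 red cell genes (median -1.22). Over all 16019 genes tested 8454 were positive and 7565 negative. The summed level of each of these lists overlapped between the groups. Neutrophil sums were 1.58, 13.5 and 48.7 CPM in treated libraries and 5.39, 1 and 12.4 CPM in controls. The neutrophil median was 0.42 without treated replicate 3. Skeletal muscle sums were 83.9, 35.15 and 114 CPM in treated libraries and 69.3, 244 and 455 CPM in controls. Fibroblast markers summed to 476, 740 and 2145 CPM in treated libraries and 890, 658 and 1139 CPM in controls. In treated replicate 1 the fat cell and fibroblast sums were below every control, and the macrophage sum was within the controls' range. Relative to the control mean on the log2 scale, jugular markers stood there at 0.94, nerve injury genes at 0.46 and nodose markers at -0.39. Cacna2d1 stood at 0.64 and Cacna1e at -0.52 on that scale. How any of these lists bears on the members was not tested.

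**Figure D5:**
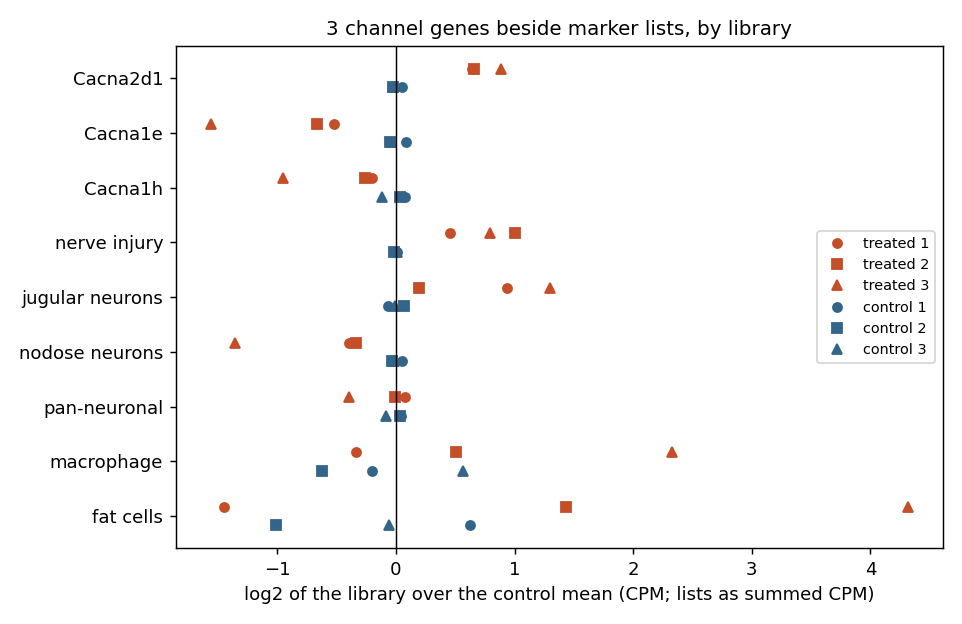
Log2 of each library over the control mean for Cacna2d1, Cacna1e, Cacna1h and the summed CPM of 6 marker lists, with treated libraries above controls in each row and replicates 1, 2 and 3 as circle, square and triangle. Cacna2d1 stands at 0.64 to 0.89 in the treated libraries, while fat cell markers run from -1.45 to 4.31 there.

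The remaining subunit genes of the channel complex had 12 of 16 genes tested, of which 0 were called, 5 were positive and 7 negative. Their median log2 fold change was -0.05, with -0.07 to 0.16 over left-out libraries, the highest without control replicate 2, so that its sign turned on single libraries. The gene of this list with the smallest p was Cacna1i, a T-type pore subunit, with 8.93, 7.28 and 13.5 CPM in treated libraries and 5.33, 4.77 and 3.18 CPM in controls. Its log2 fold change of 1.15 ± 0.30 (SE) had the sign opposite to those of the T-type genes Cacna1g and Cacna1h, at an edgeR adjusted p of 0.621. The beta subunits, which bind the alpha1 linker, gave 0.28 ± 0.13 for Cacnb4, 0.13 ± 0.10 for Cacnb3, -0.07 ± 0.12 for Cacnb1 and -0.05 ± 0.18 for Cacnb2 (log2 fold change ± SE). Cacnb3 was the most abundant of them in CPM, at 219 ± 18.9 in treated ganglia and 200 ± 15.2 in controls (SD, n = 3 each). Among gamma subunits, several of which also serve AMPA receptors, Cacng3 was at 0.55 ± 0.29, Cacng2 at -0.14 ± 0.21, Cacng4 at -0.07 ± 0.22, Cacng5 at 0.05 ± 0.14 and Cacng7 at -0.05 ± 0.12 (log2 fold change ± SE). Cacna2d4 and the muscle L-type gene Cacna1s averaged 0.537 and 1.15 CPM in treated ganglia and 0.567 and 1.19 CPM in controls. Cacna1f, Cacng1, Cacng6 and Cacng8 were too low to be tested, with at most 32 counts in a library.

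Genes that act on these channels or with them gave medians whose sign turned on single libraries. Of 14 channel regulators 13 were tested and 0 called, with a median log2 fold change of -0.03 that was 0.09 without control replicate 3, and the 3 with the smallest p were the adaptors Stac at 0.26 ± 0.11 and Stac2 at 0.40 ± 0.21 and the calmodulin gene Calm2 at -0.22 ± 0.13 (SE). Of 16 active zone partners 0 were called, with a median of -0.03, or -0.12 when treated replicate 1 was left out and 0.06 when treated replicate 3 was. They were led by the channel tether Rims1 at 0.40 ± 0.13, Tspoap1 at -0.47 ± 0.16 and the SNARE protein gene Snap25 at -0.39 ± 0.18 (SE). Rims1 had 70.8 ± 11.3 CPM in treated ganglia and 53.5 ± 2.31 CPM in controls, and Snap25 had 768 ± 188 and 1007 ± 44.8 CPM (SD, n = 3 each).

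Of 10 genes for proteins reported to bind alpha2delta subunits, such as thrombospondins and neurexins, 0 were called, 8 were positive and 2 negative. Their median log2 fold change was 0.22, and it was -0.06 without treated replicate 3. The 3 with the smallest p were the prion protein gene Prnp at 0.23 ± 0.10, Nrxn3 at 0.22 ± 0.10 and the endocytic receptor Lrp1 at 0.53 ± 0.30 (SE). Of 30 calcium handling genes 0 were called, 10 were positive and 20 negative, with a median of -0.14, or -0.04 once treated replicate 3 was left out. They were led by the calmodulin kinase gene Camk2g at 0.38 ± 0.11, the sodium-calcium exchanger Slc8a1 at -0.57 ± 0.18 and parvalbumin (Pvalb) at -1.30 ± 0.42 (SE).

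The genes whose log2 CPM over the 6 libraries was most like that of Cacna2d1, among 14708 genes of at least 1 CPM, were Tmtc4 with a Pearson r of 0.99, Sdc1 with 0.98, Igdcc3 with 0.98, Cd109 with 0.98 and Nfya with 0.98. These values describe 6 libraries in 2 separate groups and carry no test. Tmtc4 had 27.4, 27.7 and 35.9 CPM in treated libraries and 18.6, 18.1 and 18.4 CPM in controls, a log2 fold change of 0.72 ± 0.13 (SE). Like Cacna2d1 it was highest in treated replicate 3 and nearly level among the controls. Nfya, a subunit of the CCAAT-binding factor NF-Y, had 24.5, 24.3 and 27.3 CPM in treated libraries and 21.1, 21.2 and 20.5 CPM in controls.

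The promoter of Cacna2d1 is shown because this gene had the highest log2 fold change of the family. The RefSeq table (GRCm38.p6) held 10 promoter windows for 7 of the 10 members, each of 250 bases before to 50 after a start, and none for Cacna1a, Cacna1g and Cacna1h. Both strands were searched for the cyclic AMP response element TGACGTCA, its shorter form TGACG, the AP-1 site TGANTCA and the GC box GGGCGG, where the short site lies within the full one. The full element was found in 0 of the 10 windows and in 1.79% of all 32851 windows of the table, and the AP-1 site in 0 and in 7.81%. The short site was found in 3 windows, those of Cacna2d1, Cacna1b and 1 of Cacna1c, and in 20.8% of all windows. The GC box was found in 6 of the 10 and in 35.7% of all windows, and the Cacna2d1 window held 7 of them, some overlapping. The 250 bases before the Cacna2d1 start (chr5:15934441-15934690, plus strand) are 82.4% G and C and are given 5′ to 3′ with the short site and 6 of the GC boxes, read here from the other strand as CCGCCC, in capitals.
Cacna2d1: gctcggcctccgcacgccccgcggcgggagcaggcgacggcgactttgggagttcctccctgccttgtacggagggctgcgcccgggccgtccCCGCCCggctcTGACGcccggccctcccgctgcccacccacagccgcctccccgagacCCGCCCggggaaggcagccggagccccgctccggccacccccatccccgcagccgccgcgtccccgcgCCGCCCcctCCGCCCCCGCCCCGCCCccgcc
A match is a run of letters and was not shown to be bound, and its absence holds for this window only.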

How the data were processed

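Total RNA of 6 libraries was made into strand-specific libraries from about 6 ng each and read at 100 bp, per the labels' protocols. The submitters' processing notes name bcl2fastq 2.20, STAR 2.7.7a, DESeq2, edgeR and build mm10. The deposited values are raw counts of exonic reads per gene, 1 file per library. The counting program, its annotation and its strand setting were not given in the sources used here. Of 32719 gene IDs, 32663 matched GENCODE M21 (GRCm38, the same build), the source of coordinates and exon lengths.

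Counts were fitted with edgeR 4.0.16 (R 4.3.3): filterByExpr with a minimum count of 10, TMM scaling, a robust quasi-likelihood F test without a replicate block, and Benjamini-Hochberg adjustment over 16019 genes at 0.05. The SE is the size of the log2 fold change divided by the square root of F. CPM use library sizes adjusted by TMM, and log2 CPM for likeness used a prior count of 2. Groups came from titles. Members, gene lists and tests were chosen with earlier results of these data known. All members are named, all tested genes of the subunit list, the 3 of smallest p in the other channel lists, and the 5 genes most like Cacna2d1. Marker list genes and the untested subunits were named beyond that rule after their values were seen. Alternatives were other scalings, filters and thresholds, DESeq2 1.42.0, limma 3.58.1 (voom with and without sample weights), a replicate block, and each library left out. Scaling to the pan-neuronal list was added after the data were seen. The fit was tested on simulated data.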

Additional observations from a re-analysis of the deposited data

How the results depend on the processing

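The number of genes called by edgeR was 0, and it was 26 with no filter, 89 with the DESeq2 Wald test, 9 with sample weights in limma-voom and 1 with the replicate number as a block, while leaving out single libraries gave 0 to 9, with 7 in the absence of treated replicate 1 and 9 in that of treated replicate 3. The number of members called was 0 in the main fit. It was 1, Cacna2d1 each time, with no filter, with DESeq2, with sample weights and without treated replicate 3. Leaving out single libraries thus gave 0 to 1. Genes tested were 27618 with no filter, 16747 without treated replicate 3 and 16019 with DESeq2 and with sample weights. The log2 fold change of Cacna2d1 was called at 0.72 with no filter (edgeR adjusted p = 0.0151), at 0.73 with DESeq2, at 0.66 with sample weights (limma adjusted p = 0.0141) and at 0.65 without treated replicate 3, and ran from 0.65 to 0.76 over left-out libraries. Scaling to the pan-neuronal list moved the median of all genes to 0.14, Cacna2d1 to 0.87, Cacna1b to 0.021 and Cacna1c to 0.086, the last pair with the sign reversed. Signs were also reversed without treated replicate 3 for Cacna2d2 (0.013), Cacna1b (0.010) and Cacna1c (0.024), and without treated replicate 2 for Cacna1c (0.0059). Over left-out libraries the lowest values of these genes were -0.32, -0.17 and -0.13, each in the absence of treated replicate 1. No other member changed sign in the alternatives run, and no member other than Cacna2d1 was called in any. Of 10 members 4 kept their control rank per kb when the longest transcript set the length, and 6 to 10 did when a control library was left out. The causes were not tested. No label says whether samples with the same replicate number belong together. Their deviations from the group means correlated at 0.01, 0.56 and 0.49 for replicates 1, 2 and 3, and 4 of 6 libraries correlated best with their own number. Whether they share a batch is not known. Depth limits Cacna1g and Cacna1d most, at 108 to 637 counts a library.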
